A study of Mus musculus with 12 samples.

Results

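The RNA-Seq signal of *Ppara* and 7 genes known as its targets in fasting liver was followed around the day in mice that were not treated. The 8 genes were chosen by their symbols (*Ppara*, *Cpt1a*, *Pdk4*, *Fgf21*, *Angptl4*, *Ehhadh*, *Vnn1* and *Acot1*), and all 8 have a row among the 20069 genes of the deposited table. Livers of wild-type male C57BL/6 mice, adult at 3 to 6 months of age, were taken every 4 hr from ZT2 to ZT22, where ZT0 is the time of lights on. The mice had lived in 12 hr of light and 12 hr of darkness (LD12:12) for at least 2 weeks, so that ZT2, ZT6 and ZT10 fall in the light and the other 3 times in the dark. Each time was sampled once in each of 2 independent series, which gives 12 libraries of polyadenylated RNA in all. Since the liver is removed, samples of different times come from different mice, and feeding is not described in the sources used here. No animal was labelled as fasted, and the name of the gene group comes from other work. The signal is the mean coverage of a gene's exons in reads per base pair (rpbp), a level per length that can be compared between genes, and a gene was called expressed when at least 1 of the 12 values exceeded 8 rpbp. By this rule 10198 genes were expressed, all 8 genes of the group among them.

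PPARA is a nuclear receptor of hepatocytes that is activated by fatty acids. It binds DNA together with a retinoid X receptor (RXR) and turns on genes for the uptake, transport and oxidation of fatty acids and for ketone body synthesis when food is withheld. Mice feed mostly in the dark and rest in the light, so that the light phase holds a daily fast.

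In the mm9 annotation the 8 genes are protein-coding and lie at 1 locus each. *Ppara* is on chromosome 15 (85565413 to 85633249), *Cpt1a* on chromosome 19 (3323301 to 3385732), *Pdk4* on chromosome 6 (5433351 to 5446309) and *Fgf21* on chromosome 7 (52869277 to 52870860). *Angptl4* is on chromosome 17 (33910695 to 33918520), *Ehhadh* on chromosome 16 (21761360 to 21787917), *Vnn1* on chromosome 10 (23614494 to 23625149) and *Acot1* on chromosome 12 (85350448 to 85358621). None of their exons overlaps an exon of another annotated gene. Of all stretches as long as a read in the *Acot1* transcript, 32.2% also occur in transcripts of *Acot2*, *Acot3*, *Acot4*, *Acot5* or *Acot6*, while none does for the other 7 genes. Only reads with a unique place were kept, so the level of *Acot1* is uncertain.

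The 250 bases before the RefSeq start (GRCm38.p6) are shown for *Ppara*, *Ehhadh* and *Acot1*, whose mRNAs rose together from ZT2 to ZT6, and for *Cpt1a* and *Fgf21*, which hold a motif searched for. Each is written 5′ to 3′ on the gene's strand, with a motif in capitals. They lie at chr15:85735526-85735775 (plus strand), chr16:21787835-21788084 (minus strand), chr12:84009252-84009501 (plus strand), chr19:3323051-3323300 (plus strand) and chr7:45615491-45615740 (minus strand).
Ppara: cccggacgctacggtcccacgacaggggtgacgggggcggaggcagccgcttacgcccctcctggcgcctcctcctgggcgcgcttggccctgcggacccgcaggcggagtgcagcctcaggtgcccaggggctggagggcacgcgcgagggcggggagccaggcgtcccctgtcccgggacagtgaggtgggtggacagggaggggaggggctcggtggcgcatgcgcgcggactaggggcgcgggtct
Ehhadh: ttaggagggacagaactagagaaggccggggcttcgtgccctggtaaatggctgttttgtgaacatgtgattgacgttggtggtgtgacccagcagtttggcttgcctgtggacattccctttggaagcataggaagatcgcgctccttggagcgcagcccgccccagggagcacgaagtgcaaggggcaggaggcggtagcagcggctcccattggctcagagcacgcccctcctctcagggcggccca
Acot1: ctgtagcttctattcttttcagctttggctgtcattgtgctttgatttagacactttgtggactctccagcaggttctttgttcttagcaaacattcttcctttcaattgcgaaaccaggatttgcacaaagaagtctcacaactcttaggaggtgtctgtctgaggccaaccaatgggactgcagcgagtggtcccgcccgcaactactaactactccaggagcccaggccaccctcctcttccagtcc
Cpt1a: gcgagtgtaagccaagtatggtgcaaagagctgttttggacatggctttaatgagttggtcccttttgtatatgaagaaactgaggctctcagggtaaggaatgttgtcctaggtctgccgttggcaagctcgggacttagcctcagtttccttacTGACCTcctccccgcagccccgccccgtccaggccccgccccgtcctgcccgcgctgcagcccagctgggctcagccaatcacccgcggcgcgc
Fgf21: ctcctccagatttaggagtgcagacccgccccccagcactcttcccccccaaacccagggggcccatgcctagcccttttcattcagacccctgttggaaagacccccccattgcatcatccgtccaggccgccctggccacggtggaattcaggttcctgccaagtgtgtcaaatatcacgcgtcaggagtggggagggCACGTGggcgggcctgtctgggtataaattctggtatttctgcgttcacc
The letters searched on both strands were AGGTCA, the core sequence bound by nuclear receptors, and its direct repeat with 1 base between the copies, which PPARA binds with RXR, with at most 2 mismatches in the repeat. The others were CACGTG, an E-box bound by CLK:BMAL1, and TTATGTAA, a D-box bound by factors such as DBP. *Cpt1a* has 1 AGGTCA, read on the other strand and starting 94 bases before the start, and 14% of 32851 RefSeq promoter windows of this length have one. *Fgf21* has 1 CACGTG, 50 bases before its start, as have 6.02% of the windows. The repeat occurs in 3.24% and TTATGTAA in 0.819% of the windows, but neither was found in the windows of these 5 genes or of *Pdk4*. A match is only a description of these letters, and a window without a match says nothing of sites elsewhere. *Angptl4* and *Vnn1* were not searched.

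By mean over the 12 samples, *Ehhadh* had the highest level (425 rpbp), followed by *Cpt1a* (264 rpbp), *Ppara* (143 rpbp), *Angptl4* (73.9 rpbp), *Vnn1* (52.1 rpbp), *Acot1* (30.8 rpbp), *Pdk4* (15.6 rpbp) and *Fgf21* (3.85 rpbp). The 8 mRNAs followed different courses. *Ppara* and *Ehhadh* were lowest at ZT2 and highest at ZT6. *Cpt1a* and *Angptl4* had their highest samples at ZT10, and *Pdk4* was high only at ZT18 and ZT22. *Acot1* rose at ZT6 and again had a high mean at ZT18, *Vnn1* was highest at ZT6 with widely spread samples, and *Fgf21* was near the lower limit of detection throughout.

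**Figure D1:**
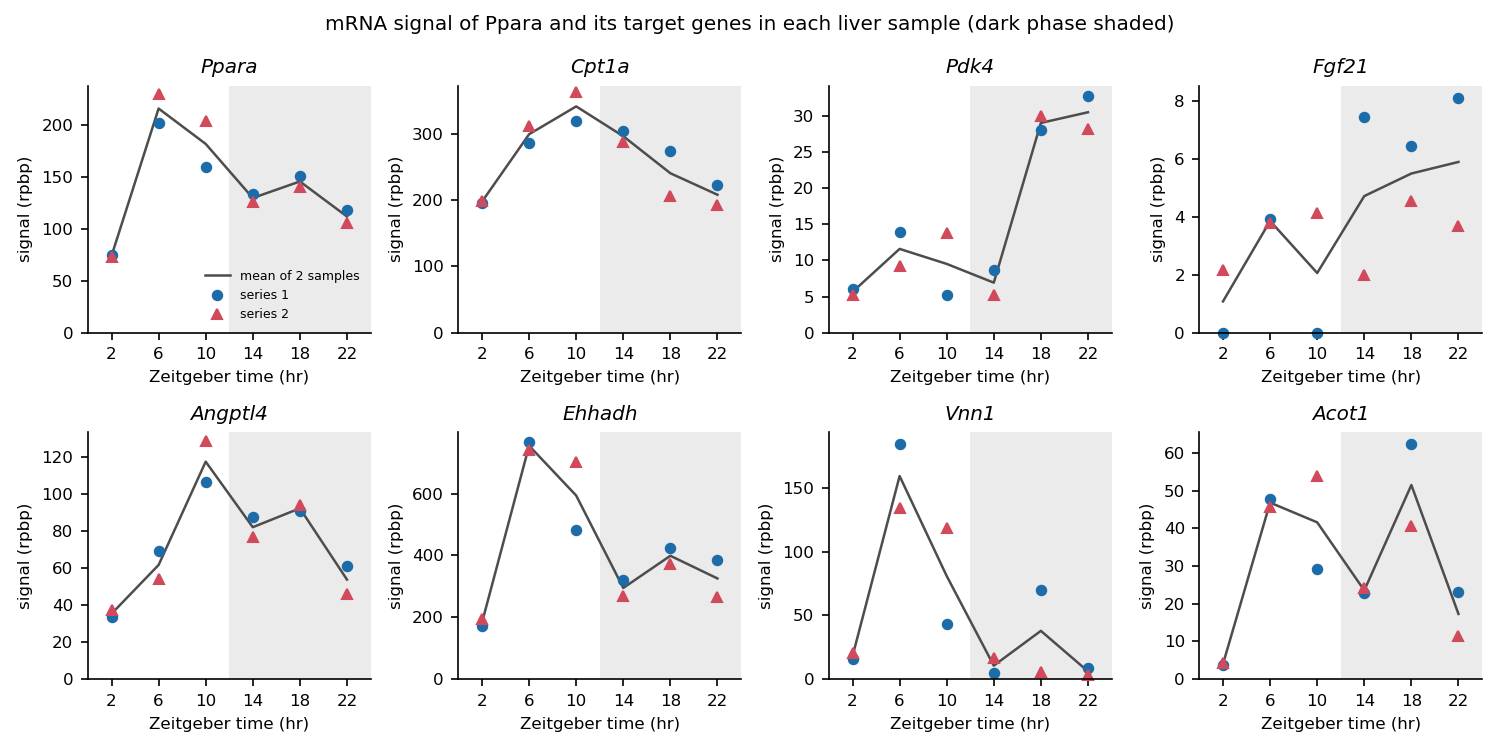
mRNA signal in rpbp (vertical axis, from 0) of each gene against Zeitgeber time in hr, with 1 symbol for each sample of series 1 and series 2, a line through the means of 2 samples and the dark phase shaded. In all 8 panels both ZT6 samples lie above both ZT2 samples, and *Pdk4* is above 28 rpbp only at ZT18 and ZT22.

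The livers and their time points were first checked with cell type markers. The 6 hepatocyte markers summed to 127000 to 160000 rpbp in the 10 samples after ZT2 and to 84600 and 89400 rpbp at ZT2, and the difference in the sum came mostly from *Alb* (albumin), at 50445 and 53126 rpbp at ZT2 against 93174 to 122523 rpbp elsewhere. *Ttr* (transthyretin) and *Tat* (tyrosine aminotransferase) were also below all other samples at ZT2, and *Cps1*, an enzyme of the urea cycle, had its lowest mean there but overlapped with ZT6. The other 2 markers differed from these 4: *Apoa1* (apolipoprotein A-I) was highest there (17423 and 17762 rpbp against 7866 to 15191 rpbp), and *Serpina1c* at ZT2 lay within the range of the other times. The 4 Kupffer cell markers moved the other way, with 485 and 487 rpbp at ZT2 and 225 to 394 rpbp at the other times. Correlations of log2(rpbp + 1) over the expressed genes were 0.975 to 0.987 between the 2 samples of a time. The median correlation of a sample with those of other times was 0.942 and 0.945 for the ZT2 samples and 0.960 to 0.971 for the 10 others, so that the ZT2 pair stood apart. In such bulk samples fewer cells of a type and less RNA per cell cannot be told apart. By the authors' statistics the ZT2 libraries also had the lowest shares of uniquely mapped sequences, and the ZT6 libraries the highest. What part this had in the low ZT2 values was not tested. Because many genes of the group were lowest at ZT2, results are also given without the ZT2 pair, an alternative chosen after the data were seen.

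*Ppara*, the receptor itself, had 74.8 and 72.6 rpbp at ZT2 (series 1 and series 2), 201 and 229 rpbp at ZT6, and 159 and 204 rpbp at ZT10. It had 133 and 126 rpbp at ZT14, 151 and 140 rpbp at ZT18, and 118 and 105 rpbp at ZT22. Both ZT2 samples were below all others and both ZT6 samples were above all dark-phase samples, whereas ZT6 and ZT10 overlapped. The mean rose from 73.7 ± 1.58 rpbp (SD, n = 2) at ZT2 to 215 ± 19.6 rpbp at ZT6, which is 2.92-fold.

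*Ehhadh*, the bifunctional enzyme of peroxisomal beta-oxidation and a classical target of PPARA, had 170 and 196 rpbp at ZT2, 767 and 742 rpbp at ZT6, and 483 and 703 rpbp at ZT10. The dark-phase values were 321 and 268 rpbp at ZT14, 424 and 373 rpbp at ZT18, and 386 and 265 rpbp at ZT22. As with *Ppara*, the ZT2 pair lay below every other sample. The ZT6 pair was above all others and the ZT10 pair above the whole dark phase, where ZT22 overlapped with both ZT14 and ZT18. From ZT2 (183 ± 18.2 rpbp) to ZT6 (755 ± 18.3 rpbp) the mean rose 4.12-fold.

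*Acot1*, a cytosolic enzyme that splits fatty acyl-CoA into free fatty acid and CoA, had 3.76 and 4.28 rpbp at ZT2, 47.9 and 45.8 rpbp at ZT6, and 29.3 and 53.8 rpbp at ZT10. Later in the day it had 22.8 and 24.2 rpbp at ZT14, 62.5 and 40.5 rpbp at ZT18, and 23.1 and 11.4 rpbp at ZT22. The ZT2 samples again stood below all others, and the samples of ZT6, ZT10 and ZT18 overlapped. The ratio of the ZT6 to the ZT2 mean was 11.6, the largest of the genes with all values above 0.

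*Cpt1a* encodes the carnitine palmitoyltransferase that controls the entry of long-chain fatty acids into mitochondria. Its values were 197 and 199 rpbp at ZT2, 287 and 313 rpbp at ZT6, and 320 and 364 rpbp at ZT10. They were 305 and 289 rpbp at ZT14, 275 and 207 rpbp at ZT18, and 224 and 193 rpbp at ZT22. The ZT10 samples were the highest, and ZT2 overlapped with ZT22. The means spanned only 1.73-fold. The lowest was 198 ± 1.92 rpbp at ZT2 and the highest 342 ± 31.6 rpbp at ZT10.

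*Angptl4*, a secreted inhibitor of lipoprotein lipase, had 33.5 and 37.2 rpbp at ZT2, 69.5 and 54.1 rpbp at ZT6, and 107 and 129 rpbp at ZT10. It then had 87.8 and 76.7 rpbp at ZT14, 90.8 and 94.1 rpbp at ZT18, and 61.4 and 46.3 rpbp at ZT22. The ZT10 pair was above and the ZT2 pair below all other samples, and ZT6 overlapped with ZT22. Its mean was 3.33 times higher at ZT10 (118 ± 15.6 rpbp) than at ZT2 (35.4 ± 2.60 rpbp).

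*Pdk4*, the kinase that inhibits pyruvate dehydrogenase and so spares glucose, had 6.08 and 5.20 rpbp at ZT2, 14 and 9.20 rpbp at ZT6, 5.24 and 13.8 rpbp at ZT10, and 8.64 and 5.20 rpbp at ZT14. At ZT18 it reached 28.1 and 30.0 rpbp, and at ZT22 32.8 and 28.3 rpbp. The 4 samples of ZT18 and ZT22 lay above the 8 others without overlap, and ZT18 and ZT22 overlapped with each other. Among the early times ZT6 was above ZT2 and ZT14, and the other pairs of times overlapped. The mean was 5.41 times higher at ZT22 (30.5 ± 3.20 rpbp) than at ZT2 (5.64 ± 0.622 rpbp).

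*Vnn1*, a pantetheinase anchored to the cell surface that releases cysteamine, had 15.7 and 20.2 rpbp at ZT2, 184 and 134 rpbp at ZT6, and 43.3 and 118 rpbp at ZT10. Dark-phase values were 4.52 and 16.6 rpbp at ZT14, 70.2 and 5.44 rpbp at ZT18, and 8.88 and 3.28 rpbp at ZT22. The ZT6 pair was above all others, but the samples of ZT18 differed by 3.47 on the log2(rpbp + 1) scale, and that time overlapped with ZT2, ZT10, ZT14 and ZT22. *Fgf21*, the hormone that the fasting liver secretes, was listed at 0 and 2.16 rpbp at ZT2, 3.92 and 3.80 rpbp at ZT6, and 0 and 4.12 rpbp at ZT10. It had 7.44 and 2.00 rpbp at ZT14, 6.44 and 4.56 rpbp at ZT18, and 8.12 and 3.68 rpbp at ZT22. *Fgf21* passed the expression minimum through the ZT22 sample of series 1 alone, and its neighbouring times overlapped, except ZT2, which was below both ZT6 and ZT22.

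The first question was which of the mRNAs follow a 24 hr rhythm. F24 is the share of the variance of the 12 concatenated values that lies in a 24 hr cosine, and its p-value came from 10000 random orders of those values. A gene was called rhythmic at p under 0.05, F24 above 0.45 and a highest value more than 1.5 times the lowest. By these criteria 4 of the 8 genes were rhythmic, against 1948 (19.1%) of the 10198 expressed genes. *Cpt1a* had F24 0.833 (permutation p = 0.0012) and a phase of 10.6 hr, *Angptl4* had F24 0.695 (p = 0.0072) and a phase of 12.9 hr, and *Pdk4* had F24 0.557 (p = 0.0389) and a phase of 20.1 hr. *Vnn1* was at the limit with F24 0.481 (permutation p = 0.0497) and a phase of 7.32 hr. *Ppara* (F24 0.440, permutation p = 0.0805), *Ehhadh* (F24 0.411, p = 0.104), *Fgf21* (F24 0.260, p = 0.257) and *Acot1* (F24 0.234, p = 0.303) were not called. With Benjamini-Hochberg adjustment over the 10198 genes only *Cpt1a* was called (adjusted p = 0.0335), against 491 genes (4.81%) in all.

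**Figure D2:**
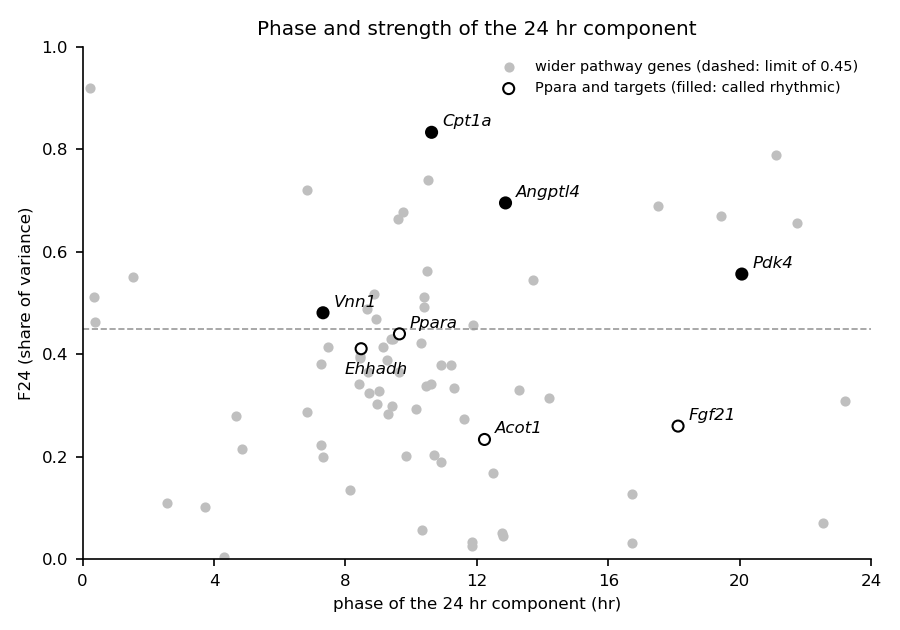
F24 (vertical axis, share of variance) against the phase of the 24 hr component in hr for the 8 genes (labelled, filled when called rhythmic) and for the expressed genes of the wider pathway (grey), with a dashed line at the limit of 0.45. *Cpt1a* has the highest F24 of the 8 (0.833) at 10.6 hr, and *Pdk4* and *Fgf21* have phases of 20.1 and 18.1 hr, while the 6 others lie between 7.32 and 12.9 hr.

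The calls of *Cpt1a* and *Angptl4* held when each of the 12 samples was left out in turn, with p between 0.0006 and 0.0068 and between 0.0031 and 0.0206. *Pdk4* lost its call without the ZT10, ZT14, ZT18 or ZT22 sample of series 1 or the ZT6, ZT18 or ZT22 sample of series 2 (permutation p = 0.0296 to 0.0858 over the 12). *Vnn1* kept its call without the ZT2, ZT10 or ZT18 sample of series 1 and lost it without any of the 9 others (permutation p = 0.0087 to 0.130). With F24 computed on log2 values *Pdk4* was not called (permutation p = 0.0936 and 0.102 with pseudocounts of 1 and 0.1 rpbp), and with size factors *Vnn1* was not (permutation p = 0.0529). Without both ZT2 samples, *Ppara* (F24 0.686, permutation p = 0.0223) and *Ehhadh* (F24 0.734, p = 0.0151) were called too and *Angptl4* was not (F24 0.542, p = 0.066).

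A cosine misses courses with a narrow peak, so any difference among the 6 times was tested with limma's F-test on log2(rpbp + 1). A time effect was called in 6 of the 8 genes at an adjusted p under 0.05, against 1792 (17.6%) of the 10198 expressed genes. The adjusted p was 0.0022 for *Ppara*, 0.0031 for *Acot1*, 0.0036 for *Angptl4*, 0.0042 for *Ehhadh*, 0.0125 for *Pdk4* and 0.0246 for *Cpt1a*. *Vnn1* (adjusted p = 0.0609) and *Fgf21* (adjusted p = 0.308) were not called. The calls of *Ppara*, *Acot1*, *Angptl4*, *Ehhadh* and *Pdk4* held without any single sample. *Cpt1a* lost its call without a ZT2 sample, a ZT6 sample or the ZT10 sample of series 2 (adjusted p up to 0.081), and without an expression minimum (adjusted p = 0.0517). *Vnn1* was called without either ZT18 sample (adjusted p down to 0.0145) and with an intensity trend in limma (adjusted p = 0.0432). Without both ZT2 samples, 3 of the 8 genes were called, namely *Ppara*, *Ehhadh* and *Angptl4*, and 469 genes in all.

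Where the levels moved was asked with the 6 steps between neighbouring times, including ZT22 to ZT2, adjusted over all genes and all 6 steps together. Of the 48 steps of the 8 genes, 7 were called, against 2.71% of the steps of all expressed genes. The largest share fell on the step from ZT2 to ZT6. There *Acot1* rose by 3.25 ± 0.35 (log2 difference ± SE, adjusted p = 0.0045), *Ehhadh* by 2.04 ± 0.22 (adjusted p = 0.0044) and *Ppara* by 1.53 ± 0.13 (adjusted p = 0.0020), against 5.52% of all genes called higher at ZT6. These 3 calls held without any single sample, with adjusted p of 0.0398 or less. The 5 others had positive differences that were not called: 3.07 ± 1.04 for *Vnn1* (adjusted p = 0.162), 1.45 ± 0.82 for *Fgf21* (0.394), 0.90 ± 0.38 for *Pdk4* (0.250), 0.78 ± 0.17 for *Angptl4* (0.0539) and 0.60 ± 0.15 for *Cpt1a* (0.0731). No gene of the 8 was called lower at ZT6, against 3.62% of all genes. The difference of *Fgf21* rested on single ZT2 samples, and was 0.62 without that of series 1, which was listed at 0, and 2.28 without that of series 2. *Angptl4* was called without either ZT22 sample and *Cpt1a* without either ZT18 sample (lowest adjusted p 0.0433 and 0.0476). *Angptl4* was also called with a minimum of 16 rpbp, size factors or an intensity trend (adjusted p = 0.0367 to 0.0490).

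In all 8 genes both ZT6 samples exceeded both ZT2 samples, which was so for 31.1% of the expressed genes. The median difference of the 8 from ZT2 to ZT6 was 1.49, against -0.02 for all expressed genes. In 4 of them (*Ppara*, *Angptl4*, *Ehhadh* and *Acot1*) both ZT2 samples were below the 10 others, as in 9.58% of the expressed genes. Markers of cell types also moved on this step. Of the 6 hepatocyte markers 4 had positive differences, with a median of 0.21, and 2 were called, *Alb* (1.05 ± 0.11, adjusted p = 0.0044) and *Ttr* (0.58 ± 0.10, adjusted p = 0.0254), while *Apoa1* (-0.68 ± 0.20, adjusted p = 0.118) and *Serpina1c* (-0.34 ± 0.25, adjusted p = 0.525) had negative ones. The 4 Kupffer cell markers had a median difference of -0.58 and no call. The cholangiocyte marker *Sox9*, the 1 of its list that was expressed, was called lower (-1.35 ± 0.28, adjusted p = 0.0459). *Sox9* exceeded the expression minimum only in samples of ZT2 and ZT22, and was itself called rhythmic (F24 0.821, permutation p = 0.0008, phase 22.3 hr). The adipocyte markers summed to 21.2 and 23.5 rpbp at ZT2 and to 41.1 and 54.1 rpbp at ZT6, with no call among the 2 expressed. The part of any of these in the step was not tested.

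**Figure D3:**
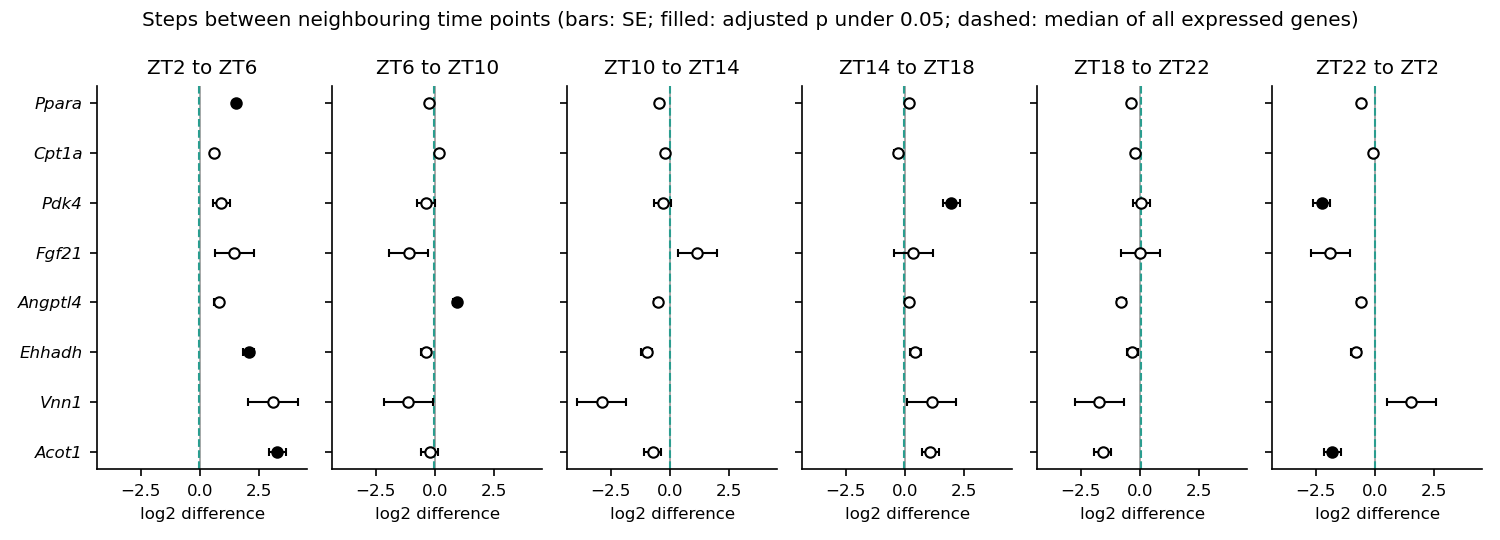
Difference in log2(rpbp + 1) between neighbouring time points (horizontal axis, bars are SE) for the 8 genes, with calls at an adjusted p under 0.05 filled and the median of all expressed genes dashed. The ZT2 to ZT6 panel has 8 points above 0 and 3 calls, and ZT10 to ZT14 and ZT18 to ZT22 have none.

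The 4 other calls involved 3 genes. *Angptl4* rose further from ZT6 to ZT10 by 0.92 ± 0.17 (adjusted p = 0.0324), where 0.598% of all genes were called higher. *Pdk4* rose from ZT14 to ZT18 by 1.96 ± 0.38 (adjusted p = 0.0345), where 0.647% were called higher, and fell by 2.25 ± 0.38 on the log2 scale from ZT22 to ZT2 (adjusted p = 0.0218). *Acot1* also fell by 1.79 ± 0.35 from ZT22 to ZT2 (adjusted p = 0.0372), where 1.41% of all genes were called lower. No fall of the 8 genes was called from ZT6 to ZT10 (0.579% of all genes), ZT10 to ZT14 (0.5%) or ZT14 to ZT18 (0.843%). All 4 calls depended on single samples and were lost without an expression minimum (adjusted p = 0.0509 to 0.0793). The *Angptl4* step was lost without either sample of ZT2, ZT6 or ZT18 or the series 2 sample of ZT10 or ZT14 (adjusted p up to 0.147), and the *Pdk4* rise without either sample of ZT2, ZT6, ZT14 or ZT18 (up to 0.126). The *Pdk4* fall was lost without either sample of ZT2 or ZT6 or the series 1 sample of ZT22 (up to 0.108), and the *Acot1* fall without either sample of ZT2, ZT6 or ZT14 or the series 1 sample of ZT22 (up to 0.155).

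The light phase was then compared with the dark phase, as the mean of ZT2, ZT6 and ZT10 against that of ZT14, ZT18 and ZT22. *Pdk4* was the only gene of the 8 that was called. Its light samples ran from 5.20 to 14 rpbp (median 7.64) and its dark samples from 5.20 to 32.8 rpbp (median 28.2), and the overlap came from the ZT14 pair. Its light-phase mean was lower by a log2 difference of -1.07 ± 0.22 (adjusted p = 0.0302), where 2.84% of all genes were called lower in the light. The call was lost without either sample of ZT2, ZT18 or ZT22, the ZT14 sample of series 1 or the ZT6 sample of series 2 (adjusted p up to 0.0873), and without an expression minimum (adjusted p = 0.0659). *Vnn1* ran from 15.7 to 184 rpbp in the light (median 80.9) and from 3.28 to 70.2 rpbp in the dark (median 7.16). Its difference of 2.43 ± 0.60 missed the limit (adjusted p = 0.0538) and passed it without the ZT18 sample of series 1 (adjusted p = 0.0121), with a minimum of 16 rpbp (0.0465) and with an intensity trend (0.0415), while 2.21% of all genes were called higher in the light. The other 6 genes had log2 differences between -1.15 ± 0.47 (*Fgf21*) and 0.37 ± 0.13 (*Ehhadh*), with adjusted p of 0.131 to 0.324. These 2 values differed between the series. In series 1 and series 2 alone the difference was -2.29 and -0.002 for *Fgf21*, and 0.088 and 0.647 for *Ehhadh*.

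The 2 samples of a time differed in a way that many of the 8 genes shared. At ZT10 all 8 genes were lower in series 1 than in series 2, with a median log2 difference of -0.70, against -0.02 over all expressed genes, of which 46.6% were higher in series 1. At ZT22 all 8 were higher in series 1, with a median of 0.47, against 0.02 over all genes, of which 52.9% were higher in series 1. *Fgf21* counted as expressed only through its ZT22 sample of series 1, so its part in this count and median carries no weight. The medians were -0.15 at ZT2, 0.06 at ZT6, 0.14 at ZT14 and 0.30 at ZT18. Single differences at ZT10 ran from -0.19 (*Cpt1a*) to -2.36 (*Fgf21*, listed at 0 in series 1), and *Ppara* itself differed by -0.36. These are differences between 2 samples at a time and carry no test.

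**Figure D4:**
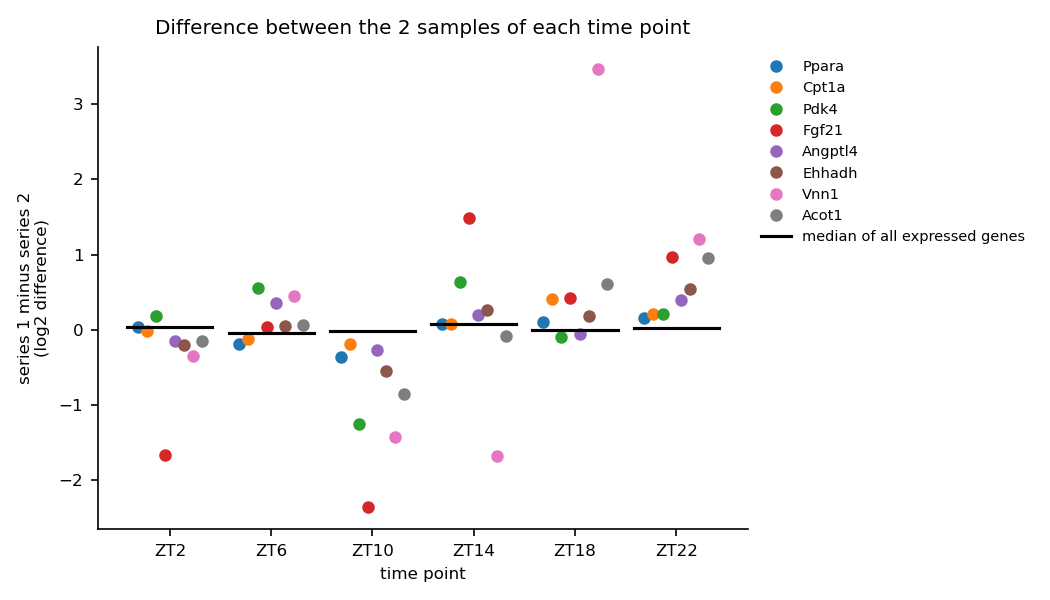
Difference in log2(rpbp + 1) between the series 1 and the series 2 sample of each time point (vertical axis) for the 8 genes, with a bar at the median of all expressed genes. The 8 points lie below 0 at ZT10 and above 0 at ZT22, and *Vnn1* at ZT18 has the largest difference (3.47). The ZT22 point of *Fgf21* carries no weight, as the gene passed the expression minimum through that series 1 sample alone.

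The sum of the adipocyte markers moved with the differences at ZT10 and ZT22. Of the 5 markers listed, 4 had a row, and they summed to 16 rpbp in series 1 and 69.5 rpbp in series 2 at ZT10, and to 31.9 and 18.3 rpbp at ZT22. At the other dark-phase times the sums were 34.0 and 16.1 rpbp at ZT14 and 40.4 and 19.2 rpbp at ZT18. The defining markers *Adipoq* and *Retn* stayed at or below 0.40 and 0.88 rpbp in all samples, and the sums came almost wholly from *Cfd* and *Fabp4*. The 2 red cell markers moved with the ZT10 difference as well, with a sum of 346 rpbp in series 1 and 857 rpbp in series 2, mostly from *Hbb-b1* (114 and 598 rpbp), and summed to 319 and 425 rpbp at ZT22, where the 8 genes were higher in series 1. The part of either marker list in the differences was not tested.

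Over the 12 samples the course of *Ppara* was closest to that of *Ehhadh* (Pearson r = 0.96 of log2(rpbp + 1)) and *Acot1* (r = 0.92) among the 7 targets, followed by *Cpt1a* (r = 0.80), *Angptl4* (r = 0.68) and *Vnn1* (r = 0.65). *Fgf21* (r = 0.33) and *Pdk4* (r = 0.19) were least like it, and *Pdk4* and *Fgf21* had r = 0.68 with each other. The 12 points are 6 times in 2 series that share the low ZT2 pair, and these values are a description only. Among all expressed genes, the 3 most like *Ppara* were *Acadl* (r = 0.98), *Got2* (r = 0.98) and *Tegt* (r = 0.98). Those most like *Ehhadh* were *Sdha*, *Acaa1b* and *Got2* (r = 0.98 each), and those most like *Acot1* were *Nmt2*, *Slc47a1* and *RP23-451A6.3* (r = 0.98 each). *Cpt1a* was most like *C230093N12Rik* (r = 0.97), *Pctk3* (r = 0.96) and *Peci* (r = 0.96), and *Angptl4* most like *Pfkfb1* (r = 0.95), *2600011C06Rik* (r = 0.94) and *Rbm25* (r = 0.93). For *Vnn1* they were *Rab3d* (r = 0.95), *mKIAA4185* (r = 0.93) and its paralogue *Vnn3* (r = 0.91), for *Pdk4* *Sp3* (r = 0.92), *Col5a3* (r = 0.89) and *Frat1* (r = 0.88), and for *Fgf21* *mKIAA0570* (r = 0.89), *Akap1* (r = 0.89) and *Atp2c1* (r = 0.87).

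Relatives of the 8 genes were compared next. *Ppard*, a related receptor, had 13.0 and 8.80 rpbp at ZT2 and 3.12 and 4.00 rpbp at ZT6, and reached 21.3 and 29.8 rpbp at ZT22, with F24 0.788 (permutation p = 0.0001, the smallest that 10000 orders can give) and a phase of 21.1 hr. It fell by 1.37 ± 0.25 on the log2 scale from ZT2 to ZT6 (adjusted p = 0.0295), a step on which *Ppara* rose. *Pparg*, the third receptor, was at 0.16 and 0.20 rpbp at ZT14 and at 24.0 and 27.8 rpbp at ZT6, and its samples of ZT10 were at 6.24 and 40.2 rpbp. Both differ from *Ppara* in level, their highest samples being 29.8 and 40.2 rpbp against 229 rpbp.

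*Pdk1* and *Pdk2*, the other pyruvate dehydrogenase kinases expressed, rose at ZT6 by 2.04 ± 0.22 (adjusted p = 0.0049) and 0.86 ± 0.14 (adjusted p = 0.0219). *Pdk1* went from 18.6 and 20.6 rpbp to 81.9 and 85.6 rpbp, and *Pdk2* had a phase of 9.14 hr (F24 0.681, permutation p = 0.0077) against 20.1 hr for *Pdk4*. *Pdk3* did not pass the expression minimum, nor did *Cpt1b* and *Cpt1c*, the other carnitine palmitoyltransferases of this type. *Angptl6*, a secreted relative of *Angptl4*, had a difference of 0.18 ± 0.17 (adjusted p = 0.655). *Vnn3* differed by 1.07 ± 0.57 (adjusted p = 0.360) and was called rhythmic (F24 0.617, permutation p = 0.0191, phase 8.03 hr). *Klb*, the gene of the FGF21 co-receptor beta-Klotho, rose by 1.00 ± 0.17 (adjusted p = 0.0214). Of the FGF receptor genes listed, *Fgfr4* was rhythmic with a phase of 21.5 hr (F24 0.753, permutation p = 0.0001) and *Fgfr1* did not pass the minimum.

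The thioesterases related to *Acot1* rose as well. *Acot4* went from 7.72 and 9.08 rpbp at ZT2 to 109 and 154 rpbp at ZT6 (3.80 ± 0.36, adjusted p = 0.0029) and *Acot2* from 1.08 and 0.64 rpbp to 15.6 and 18.9 rpbp (3.30 ± 0.44, adjusted p = 0.0097). *Acot3* was listed at 0 in both ZT2 samples and at 94.3 and 192 rpbp at ZT6 (adjusted p = 0.0051). Of the read-length stretches in their transcripts, 17.0% of those of *Acot2*, 5.56% of those of *Acot3* and 0.899% of those of *Acot4* also occur in another gene, *Acot1* among them.

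The wider pathway was read from 5 lists with 70 genes, of which 68 were expressed. From ZT2 to ZT6, 24 of the 68 were called higher and 1 lower, where 5.52% of all expressed genes were called higher and 3.62% lower, with a median difference of 0.76 against -0.02 over all expressed genes, and 12 of the 68 were called rhythmic (17.6%, against 19.1% of all expressed genes). Without an expression minimum 11 of the 68 were called higher at ZT6. Leaving out single samples gave 6 to 25, and the count moved by more than 1.5 times without either sample of ZT2, ZT6 or ZT14. Of the 20 genes for mitochondrial beta-oxidation and ketone body synthesis, 10 were called higher at ZT6 and all 20 had positive differences, with a median of 0.78. The 15 peroxisomal genes had 7 such calls and a median of 0.81, with *Crot* as the exception in direction (-0.63 ± 0.17, adjusted p = 0.0934). *Crot*, which moves shortened fatty acids out of peroxisomes, was called rhythmic with a phase of 0.22 hr (F24 0.919, permutation p = 0.0003), whereas *Peci* (F24 0.741, p = 0.0074), *Decr2* (F24 0.678, p = 0.0113) and *Acaa1a* (F24 0.664, p = 0.0137) had phases of 9.60 to 10.5 hr. *Acsl1*, which activates fatty acids, was the 1 rhythmic gene of the mitochondrial list (F24 0.546, permutation p = 0.026, phase 13.7 hr).

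Of the 7 genes for omega-oxidation, 4 were called higher at ZT6 and none was called rhythmic, and these 4 are named after their values were seen. *Cyp4a14*, a fatty acid hydroxylase, went from 1.64 and 1.72 rpbp at ZT2 to 1430 and 1322 rpbp at ZT6 (9.0 ± 0.93, adjusted p = 0.0039). *Cyp4a10* rose by 6.33 ± 0.38 (adjusted p = 0.000262), *Cyp4a31* by 6.88 ± 0.44 (adjusted p = 0.000390) and *Aldh3a2*, an aldehyde dehydrogenase, by 2.81 ± 0.41 (adjusted p = 0.0136). Of the read-length stretches of *Cyp4a10* and *Cyp4a31*, 11.4% and 7.19% also occur in a related *Cyp4a* gene, so their levels are uncertain. Like the 8 genes above, *Cyp4a14* was lower in series 1 than in series 2 at ZT10 (249 and 1058 rpbp), but at ZT22, where the 8 were higher in series 1, it was lower there (37.9 and 45.6 rpbp). At ZT18 it had 577 and 87.6 rpbp. Of the 10 expressed genes for uptake and lipid droplets 2 were called higher at ZT6. Of the 16 receptors and coregulators *Ppard* was called lower and *Ppargc1b*, a coactivator, higher. *Ppargc1b* passed the expression minimum through a single ZT6 sample (8.16 rpbp), so that its selection favoured a high value at ZT6 and its call, 1 of the 24 above, carries no weight.

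**Figure D5:**
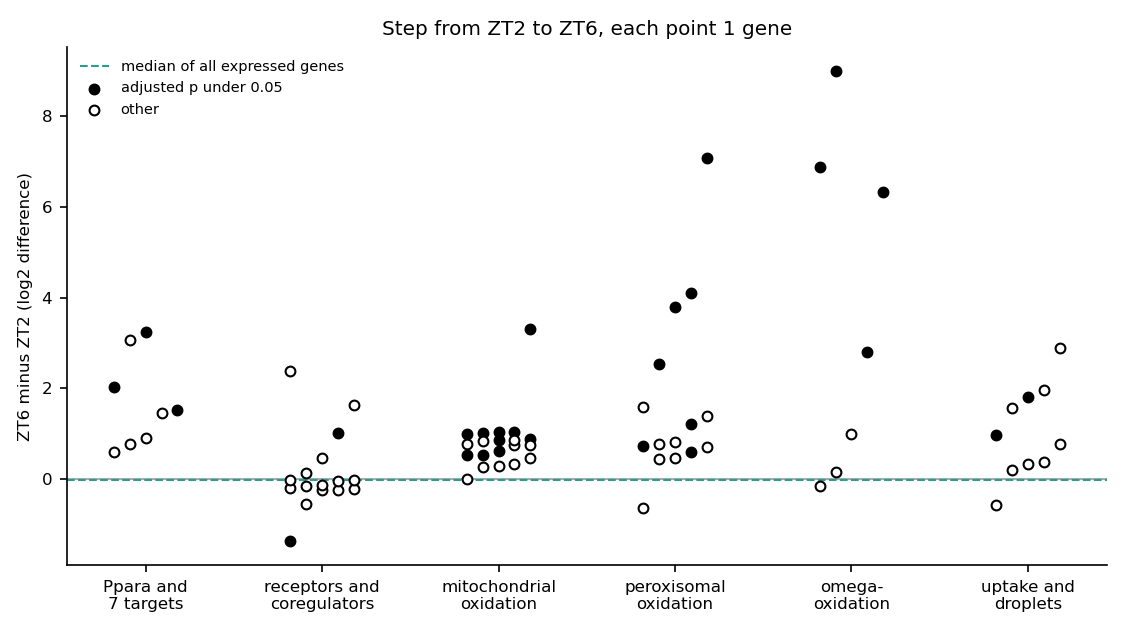
Difference in log2(rpbp + 1) from ZT2 to ZT6 (vertical axis) for *Ppara* with its 7 targets and for the expressed genes of the 5 lists, each point 1 gene, filled at an adjusted p under 0.05. All 8 genes of the first column and all 20 mitochondrial genes lie above 0, and the largest differences (6.33 to 9.0) are those of 3 *Cyp4a* genes and, at 7.08, *Acot3*, which was listed at 0 at ZT2.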

How the data were processed

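The authors sequenced TruSeq libraries, and the submitters' processing notes name CASAVA 1.8, TopHat and mm9. The deposited signal is coverage per base pair: the authors summed uniquely mapped reads over the flattened exons of a gene, without regard to strand, divided by exon length and scaled to 10000000 mapped sequences. It was multiplied by 4 here. Columns named ZT20 were taken as ZT22, the time in the labels. The authors' own columns of F24, phase and p were not used. The signal is not a count, so depth is unknown from the file and no counting interval is given. The authors list the number of uniquely mapped sequences of each library, which was not used here.

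F24, phase and permutation p (seed 1) were computed from the rpbp values. limma 3.58.1 (R 4.3.3) was fitted to log2(rpbp + 1) of all 10198 expressed genes without a replicate block, with Benjamini-Hochberg adjustment. Fold changes on this scale understate those of low genes. Where a sample was left out, the lone sample of its time was assumed to vary like the others. p-values measure the spread between these samples, and how many animals a library holds is not given in the sources used here. The other tools were matplotlib 3.10.9, pandas 2.3.3, numpy 2.4.6 and Python 3.11.15, and the tests were checked on simulated data.

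The genes and lists were chosen with earlier results of these data known. Named are the 8 genes, their expressed relatives, at most 4 rhythmic genes of each list by F24, the 3 genes most like each of the 8, and markers that moved with them. A result that falls under this rule is not reported here. *Eci2* is listed as *Peci* in the table. Sequences are from RefSeq, coordinates of genes from GENCODE.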

Additional observations from a re-analysis of the deposited data

How the results depend on the processing

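The series numbers did not pair the samples, since correlations of the deviations of same-numbered samples ran from -0.15 to 0.21 over 15 pairs of times and 2 exceeded 0.1. With the replicate block, 2 of the 8 genes were rhythmic (*Cpt1a* and *Angptl4*; 1779 of all genes), 6 had a time effect (1395 of all), 1 differed between light and dark (374 of all), 5 of 48 steps were called (1156 over all genes) and 14 genes of the wider pathway rose at ZT6. The block ended the rhythm calls of *Pdk4* (permutation p = 0.0573) and *Vnn1* (permutation p = 0.0707) and the step calls of *Pdk4* from ZT14 to ZT18 (limma adjusted p = 0.0576) and *Acot1* from ZT22 to ZT2 (0.0603). With the adjusted permutation p, 1 of the 8 and 491 of all genes were rhythmic. Without an expression minimum, 5 of the 8 and 1216 of all genes had a time effect (*Cpt1a* was lost), no gene of the 8 differed between light and dark (limma, 4 at an unadjusted p under 0.05) and 261 of all genes did, 3 steps of the 8 and 861 of all genes were called, and 11 pathway genes rose, as more genes were tested. A minimum of 16 rpbp gave 2 light-dark calls (486 of all genes) and 12 steps (1885), an intensity trend in limma 2 (540) and 12 (2049), and size factors 11 steps (1846). Without both ZT2 samples, 3 of the 8 and 469 of all genes had a time effect, with fewer samples. Leaving out single samples or a whole series gave 0 to 4 rhythmic genes of the 8 and 286 to 2012 of all. Leaving out single samples gave 5 to 7 time effects (724 to 1676 of all), 0 to 1 light-dark calls (215 to 447), 3 to 10 steps (343 to 1691) and 6 to 25 pathway genes. With 1 series alone limma has no test. The rhythm call of *Pdk4* was lost on log2 values and that of *Vnn1* with size factors. No called value changed its sign under any alternative run. *Fgf21* had the lowest mean level of the 8 genes, with values near or at 0.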

Other observations

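Among the receptors and coregulators, 3 of 16 expressed genes were called rhythmic (18.8%), a share close to the 19.1% of all expressed genes. *Lpin1*, a phosphatidate phosphatase and coactivator of PPARA, had 10.5 and 7.72 rpbp at ZT2 and 95.8 and 161 rpbp at ZT10 (F24 0.562, permutation p = 0.0006, phase 10.5 hr), close to the phase of *Cpt1a*. *Nrip1*, a corepressor, had a phase of 19.4 hr (F24 0.669, permutation p = 0.0085), and *Ppard* one of 21.1 hr. *Rxra*, the partner of PPARA in binding DNA, had no time effect that was called (limma adjusted p = 0.284), with means between 254 and 324 rpbp.

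Of the uptake and droplet genes, *Pnpla2*, the lipase that starts the breakdown of stored fat, was called rhythmic with a phase of 6.84 hr (F24 0.722, permutation p = 0.0049). *Plin5*, a droplet protein listed as *2310076L09Rik*, was called with a phase of 17.5 hr (F24 0.689, permutation p = 0.0012). *Cd36*, a fatty acid transporter and target of PPARA, ranged from 17.5 to 246 rpbp and was not called (F24 0.343, permutation p = 0.157). It is named for its range, after its values were seen.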
